A study of Homo sapiens
Mus musculus with 24 samples.

Results

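The comparison described here is the main effect of chemotherapy in 20 of the 24 tumor libraries of the series, those from mice fed a high-fat diet. The libraries were taken by the prefix of their titles: 11 came from mice given chemotherapy and 9 from mice given none, and feeding of moringa seed concentrate (MC), present in 11 libraries and absent in 9, entered as a covariate. All mice were female B6/Rag1KO animals, which lack mature T and B lymphocytes, and carried a xenograft of MDA-MB-231, an established human triple-negative breast cancer line, injected in Matrigel and collagen under the skin at the base of the neck when the mice were 14 weeks old by the labels. The study's methods give another age, and the labels were followed. The CTRL group (n = 4) received the high-fat diet with weekly intraperitoneal saline, and the Chemo group (n = 5) the same diet with doxorubicin and cyclophosphamide by the same route. The MC group (n = 5) ate the high-fat diet with MC, and the MC + Chemo group (n = 6) ate that diet and received both drugs. Each tumor gave one 3′ tag library that held human (tumor) and murine (host) transcripts, deposited as separate raw count tables. The 4 Lean libraries were not part of the comparison. By the study's account every tumor derived from a single cell line, so the line was not replicated. The identity of the line in each library was not tested.

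Doxorubicin poisons topoisomerase II and intercalates in DNA, and cyclophosphamide, once activated in the body, crosslinks DNA. Damaged DNA stabilizes p53, which switches on genes of cell cycle arrest and cell death such as Cdkn1a. MDA-MB-231 cells carry a mutant p53, whereas the host cells of these mice carry the wild-type gene. DNA that reaches the cytoplasm can also trigger interferon signaling, which induces antiviral genes and the machinery that presents peptides on MHC class I, and cytotoxic drugs deplete bone marrow, so that circulating granulocytes and red cells fall and are then rebuilt from young cells.

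Total counts per library ran from 7796231 to 17621273 in the human table and from 3664056 to 9892470 in the murine table. Human transcripts made up 66.0% ± 2.85 (SD, n = 4) of the counts in CTRL, 66.2% ± 4.37 (n = 5) in Chemo, 61.6% ± 7.83 (n = 5) in MC and 67.3% ± 4.24 (n = 6) in MC + Chemo, a difference of 3.26 percentage points with chemotherapy that was within the spread (exact permutation test within the MC strata, two-sided, p = 0.193). Several libraries stood apart. In the human table, CTRL 17 and CTRL 44 held 71918 and 50209 normalized counts of VIM, a mesenchymal filament protein, against 4402 to 21956 in the other 18 libraries, and 2.73 and 312 normalized counts of CDH1, the epithelial cadherin, against 1656 to 4472. The other libraries therefore expressed CDH1, although the line is usually described as mesenchymal. In the murine table, MC 41, MC + Chemo 43 and MC + Chemo 52 carried the highest summed levels of the skeletal muscle or adipocyte lists. MC + Chemo 5 has a title of the combined group but a characteristics field that names the MC diet only, and it was kept in the group of its title.

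No human gene passed the main test: of 16434 tested genes, edgeR's quasi-likelihood test with Benjamini-Hochberg adjustment called 0 (0% of tested genes), with a lowest adjusted p of 0.147. At an unadjusted p under 0.05, 2582 genes (15.7%) stood out, 1075 higher (6.54%) and 1507 lower (9.17%) with chemotherapy. DESeq2, the tool of the study, called 251 human genes (1.54%), of which 115 were higher (0.706%) and 136 lower (0.835%). Each of the 251 had the same sign in both strata, which choosing genes by the effect over both strata largely brings about. Of the 2582 genes at an unadjusted p under 0.05 in edgeR's main effect, 98.6% also had the same sign. Without CTRL 17 and CTRL 44 DESeq2 called 85. The human differences below therefore did not pass the main test.

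The strata share no library, so a gene taken from one stratum can be read in the other. Of all tested human genes, 55.5% had the same sign in Chemo against CTRL and in MC + Chemo against MC. Of the 2989 genes (18.2%) at an unadjusted p under 0.05 in Chemo against CTRL, 70.1% kept their sign in the MC stratum, and of the 1306 (7.95%) picked in the MC stratum, 62.3% kept it without MC. Both edgeR contrasts of single strata called 0 genes (0%) after adjustment, against 618 (3.88%) by DESeq2 in Chemo against CTRL and 8 (0.0424%) in MC + Chemo against MC. Without CTRL 31, edgeR called 1466 genes in Chemo against CTRL, and without CTRL 70 it called 746, and in both cases CTRL 17 and CTRL 44 were 2 of the 3 CTRL libraries left. The pair of strata agreed in sign for 181 of the 205 genes at an unadjusted p under 0.05 in each. Over all tested human genes 46.8% were higher with chemotherapy, 25.9% were higher in both strata and 29.6% lower in both, which is the background for the lists.

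Among human transcripts, interferon-stimulated genes and MHC class I genes were higher with chemotherapy in both strata. Of 36 tested interferon-stimulated effectors, 35 were higher in both strata, with a median log2 difference of 0.73 against -0.02 over all tested genes. By stratum the median was 1.09 without MC and 0.40 with MC. At an unadjusted p under 0.05 stood 31 (86.1%, against 6.54% of all tested genes). DESeq2 called 10, against 0.706% of all its tested genes called as higher. Of 16 MHC class I genes, 15 were higher, 14 of them in both strata, 12 were at an unadjusted p under 0.05 and DESeq2 called 7, with a median log2 difference of 0.51. Without CTRL 17 and CTRL 44 the medians were 0.43 and 0.42, with 36 of 36 and 15 of 16 genes higher and 30 and 10 at an unadjusted p under 0.05, against 5.3% of all tested genes. The summed level of the effectors lay between 92144 and 120435 normalized counts in Chemo and between 14135 and 83196 in CTRL. With MC it lay between 104901 and 136514 in MC + Chemo and between 61415 and 101796 in MC, so that the groups overlapped in neither stratum.

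ISG15, a ubiquitin-like protein that is attached to other proteins under interferon, held 543, 2773, 849 and 2155 normalized counts in CTRL 17, 31, 44 and 70, and 3716, 4249, 4282, 3834 and 5044 in Chemo. In MC it held 2433, 3954, 2019, 3061 and 3338, and in MC + Chemo it ran from 3673 through a median of 5258 to 6149. All 5 Chemo libraries lay above all 4 CTRL libraries, while the ranges of MC and MC + Chemo overlapped. The main difference was 1.08 ± 0.23 (SE, n = 20) on the log2 scale (edgeR adjusted p = 0.147, called by DESeq2), and it was 0.80 without CTRL 17 and CTRL 44. UBE2L6, the enzyme that passes ISG15 on to its targets, was higher by 0.77 ± 0.16 on the log2 scale, 0.99 ± 0.23 without MC and 0.59 ± 0.20 with MC. HERC5, the ligase that completes the attachment, was higher by 0.56 ± 0.12, and the exonuclease ISG20 by 0.66 ± 0.15. All 3 were called by DESeq2 and none by edgeR (adjusted p = 0.147 each).

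The sensing and signaling genes upstream were less uniform. Of 20 tested, 17 were higher, 14 of them in both strata, and 11 were at an unadjusted p under 0.05, against 6.54% of all tested genes. The median log2 difference was 0.39, and 0.20 without CTRL 17 and CTRL 44. By stratum the median was 0.78 without MC and 0.15 with MC. DHX58, which encodes the RNA sensor LGP2 and was called by DESeq2, held 36.5, 149, 39.7 and 170.5 normalized counts in CTRL, 201, 246, 185, 191 and 208 in Chemo, 116, 115, 127, 162 and 153 in MC, and 169 to 215 with a median of 204 in MC + Chemo. No library given chemotherapy overlapped its own stratum's untreated libraries. IRF7, a transcription factor that amplifies interferon production, differed by 1.13 ± 0.29 on the log2 scale without MC and by 0.35 ± 0.26 with MC, and was not called by DESeq2.

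Among the MHC class I genes, B2M, the invariant light chain of the complex, held 6748, 15429.9, 13738 and 14255 normalized counts in CTRL and 23657, 19116, 25777, 19038 and 26991 in Chemo. In MC it held 13904, 19267, 16533, 16601 and 16308, and in MC + Chemo it ran from 20964 through a median of 24202 to 37889.9. The groups did not overlap in either stratum, and only the MC library at 19267 reached above the lowest Chemo libraries. The main difference was 0.74 ± 0.14 on the log2 scale, a fold of 1.67 (edgeR adjusted p = 0.147, called by DESeq2), with 0.86 ± 0.21 in one stratum and 0.64 ± 0.19 in the other, and 0.63 without CTRL 17 and CTRL 44. The heavy chain HLA-C was higher by 0.76 ± 0.16 and HLA-B by 0.91 ± 0.21, and TAP1, a subunit of the peptide transporter, by 0.65 ± 0.15. These 3 were called by DESeq2 and also did not overlap in either stratum. HLA genes are near-identical in sequence and can share 3′ tag reads, so the split of counts between HLA-B and HLA-C is uncertain.

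**Figure D1:**
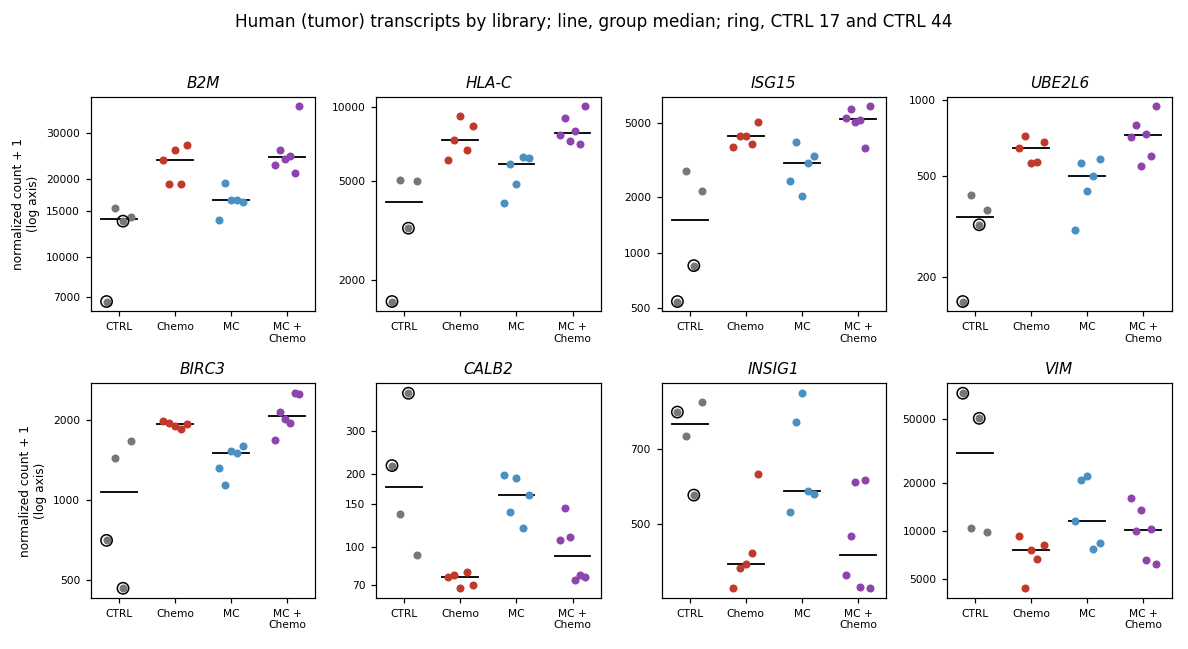
Normalized counts plus 1 (log axis) of 8 human genes in each of the 20 libraries, with one point per library, a line at each group's median and a ring around CTRL 17 and CTRL 44. B2M, HLA-C and BIRC3 do not overlap between chemotherapy and none in either stratum, CALB2 and INSIG1 are lower with chemotherapy, and VIM is set apart by the ringed CTRL libraries.

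Non-overlap in both strata was rare. It held for 14 human genes that were higher with chemotherapy (0.0852% of tested genes) and 1 that was lower (0.00608%). Of the 14, 13 have symbols in the files, and 4 of these were the MHC class I genes B2M, HLA-B, HLA-C and TAP1. The interferon and MHC lists hold 36, 20 and 16 of the 16434 tested genes, and with DHX58 they held 5 of the 14. The rest were BIRC3, MAOA, SQOR, MGST2, NEU1, TGM1, OLR1 and INPP5J, of which all but MAOA were named after their values were seen.

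BIRC3, an inhibitor of apoptosis and a target of NF-kappaB, was the single human gene (0.00608%) for which all 11 chemotherapy libraries lay above all 9 others. It held 705, 1448, 464 and 1677 normalized counts in CTRL, 1985, 1958, 1899.5, 1849 and 1935 in Chemo, 1322, 1145, 1526, 1509 and 1599.6 in MC, and 1686 to 2530.2 with a median of 2081 in MC + Chemo. The margin between 1677 in CTRL 70 and 1686 in the lowest MC + Chemo library was small. The main log2 difference was 0.69 ± 0.17 (edgeR adjusted p = 0.148, called by DESeq2), and 0.48 without CTRL 17 and CTRL 44.

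MAOA, the mitochondrial monoamine oxidase, held 168, 298, 171 and 329 normalized counts in CTRL, 589, 336, 407, 429.8 and 466 in Chemo, 222, 374, 405, 384 and 364 in MC, and 431 to 577 with a median of 518 in MC + Chemo. Its main log2 difference was 0.69 ± 0.14 (edgeR adjusted p = 0.147, called by DESeq2), and 0.52 without CTRL 17 and CTRL 44. SQOR, a mitochondrial enzyme that oxidizes hydrogen sulfide, was higher by 0.44 ± 0.10, and the scavenger receptor OLR1 by 1.79 ± 0.47, from counts that were 0 in CTRL 17 and CTRL 44, and both were called by DESeq2.

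Of 20 inflammatory cytokines and related genes, 18 were higher, 14 of them in both strata, with a median log2 difference of 0.45. At an unadjusted p under 0.05 stood 6, against 6.54% of all tested genes. The median was 0.36 without CTRL 17 and CTRL 44, with 2 genes at that p. CXCL10, a chemokine induced by interferon, differed by 1.21 ± 0.41 on the log2 scale, and CXCL8, which attracts neutrophils, by 0.61 ± 0.25, and neither was called by DESeq2. CXCL10 held 5.47 and 11.2 normalized counts in CTRL 17 and CTRL 44, and 77.1 to 546 in the other libraries.

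Genes of cornified and antimicrobial epithelium were higher in 15 of 16 cases, 12 of them in both strata, with a median log2 difference of 0.86 that fell to 0.46 without CTRL 17 and CTRL 44. S100A8, a calcium-binding alarmin, held 0.911, 58.5, 0 and 25.3 normalized counts in CTRL, 103, 95.2, 28.3, 189 and 99.3 in Chemo, 10.8, 71.8, 41.3, 71.1 and 91.4 in MC, and 92.7 to 674 with a median of 152 in MC + Chemo. In the MC stratum the groups did not overlap, and without MC one Chemo library lay between the CTRL libraries. The main log2 difference of S100A8 was 2.20 ± 0.55 and that of S100A7, another alarmin, was 2.26 ± 0.54, both called by DESeq2 and neither by edgeR (adjusted p = 0.148 each). KRT81, a hair keratin, differed by 0.87 ± 0.35 and was not called by either tool.

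Of 10 drug handling genes, 5 were higher and 5 lower, with a median of 0.18. CYP2J2, a cytochrome P450 epoxygenase, held 6.38, 28.2, 12.1 and 33.7 normalized counts in CTRL, 64.5, 53.7, 55.4, 60.4 and 87.9 in Chemo, 24.4, 60, 29.1, 42.3 and 28.7 in MC, and 50.9 to 98.4 with a median of 59.1 in MC + Chemo. Every Chemo library exceeded every CTRL library, and MC 41, at 60, was the one library without chemotherapy inside the range of the treated libraries. The main log2 difference was 1.21 ± 0.26 (called by DESeq2), and 0.92 without CTRL 17 and CTRL 44. The study itself names CYP2J2 as higher with chemotherapy in these samples, so its rise here is not independent evidence. MGST1, a membrane-bound glutathione transferase, differed by 0.65 ± 0.21 and was called by neither tool.

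Among genes that were lower with chemotherapy, CALB2, which encodes the calcium-binding protein calretinin, held 215, 135, 427 and 91.9 normalized counts in CTRL and 74.2, 76.1, 66.7, 78.3 and 68.6 in Chemo. It held 198, 138, 191, 119 and 162 in MC and 72.2 to 144 with a median of 91 in MC + Chemo. The groups did not overlap without MC and overlapped with MC. The main log2 difference was -1.13 ± 0.23 (edgeR adjusted p = 0.147, called by DESeq2), with -1.59 ± 0.32 and -0.75 ± 0.29 in the strata, and -0.71 without CTRL 17 and CTRL 44. BMP2, a secreted growth factor, differed by -1.58 ± 0.36, and by -0.96 without those libraries. GNB4, a G protein subunit, differed by -0.73 ± 0.16, and DESeq2 called both BMP2 and GNB4.

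COL6A3, a chain of collagen VI, held 1243, 794, 1153 and 521 normalized counts in CTRL, 299, 391, 559, 658 and 378 in Chemo, 878, 618, 828, 904 and 944 in MC, and 179.9 to 634 with a median of 454 in MC + Chemo. One library of each stratum's untreated group reached into the treated range. The log2 difference was -0.98 ± 0.20 over both strata (called by DESeq2) and nearly equal in them, at -1.04 ± 0.30 without MC and -0.93 ± 0.28 with MC.

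Sterol and fatty acid synthesis genes were lower with chemotherapy, also when CTRL 17 and CTRL 44 were left out. Of its 18 tested genes 17 were lower, 9 of them in both strata, and 6 were at an unadjusted p under 0.05 (33.3%, against 9.17% of all tested genes), with a median log2 difference of -0.16. Without those libraries 18 of 18 were lower and the median was -0.19. INSIG1, a feedback regulator of the sterol sensor that is itself a target of SREBP, held 826, 741, 568 and 864 normalized counts in CTRL, 373, 409, 416, 438 and 624 in Chemo, 526, 791, 899, 579 and 572 in MC, and 374 to 608 with a median of 434 in MC + Chemo. Most treated libraries lay below every untreated library of their stratum, and the highest treated libraries overlapped the untreated range. Its main log2 difference was -0.62 ± 0.13 (edgeR adjusted p = 0.147), and -0.64 without CTRL 17 and CTRL 44. SCD, the stearoyl-CoA desaturase, differed by -0.53 ± 0.14 and, like INSIG1, was called by DESeq2. STARD4, a sterol carrier, differed by -0.66 ± 0.22 and LSS, a cholesterol synthesis enzyme, by -0.25 ± 0.09, and neither was called.

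Proliferation genes differed less. All 23 mitosis genes were lower, 14 of them in both strata, with 6 at an unadjusted p under 0.05, against 9.17% of all tested genes. Their median log2 difference was -0.12, but without CTRL 17 and CTRL 44 12 of 23 were higher and the median was 0.00. MKI67, the proliferation marker, held 2643 to 3690.3 normalized counts in CTRL, 1379 to 3233 in Chemo, 2625 to 3412 in MC and 1564 to 3008 in MC + Chemo. Its log2 difference was -0.34 ± 0.13 and was not called by either tool. Of 21 DNA replication genes 14 were lower (median -0.05), and of 15 DNA crosslink and break repair genes 11 were lower (median -0.13). HELLS, a chromatin remodeler of dividing cells, differed by -0.49 ± 0.12 and was the replication gene called by DESeq2. Of 16 histone genes 8 were higher, and 13 without CTRL 17 and CTRL 44. HIST1H2BD was higher by 0.49 ± 0.11 (called by DESeq2), while HIST1H1C differed by -0.58 ± 0.17 (not called).

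Human p53 targets showed no common direction, with 14 of 23 higher, 8 of them in both strata, and a median log2 difference of 0.06. Of the hypoxia genes 18 of 24 were lower (median -0.20, and -0.09 without CTRL 17 and CTRL 44), among them NDRG1 at -0.44 ± 0.16, which no tool called. Integrated and ER stress genes were higher in 9 of 16 cases (median 0.02) and NRF2 targets in 7 of 12 (median 0.04). The MDA-MB-231 identity genes were lower in 4 of 5 cases (median -0.46), each of the 4 in both strata, with medians of -0.83 without MC and -0.14 with MC. Without CTRL 17 and CTRL 44, 3 of 5 were lower (median -0.12). VIM differed by -1.31 ± 0.39 with CTRL 17 and CTRL 44, called by DESeq2, and by -0.46 without them. Of 4 tested epithelial and receptor genes, 3 were higher (median 0.45). The genes that the study names with chemotherapy were chosen on these samples and are not independent evidence. The 4 human ones had the same sign in both strata, 2 higher and 2 lower. All 4 were at an unadjusted p under 0.05, and DESeq2 called 1. Among them IGFBP1, which binds insulin-like growth factors, differed by -1.25 ± 0.60 on the log2 scale, and by -0.12 without CTRL 17 and CTRL 44. It was called by neither tool.

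Among the murine transcripts, 3 of 15011 tested genes (0.02%) passed edgeR's test. Cdkn1a and Camp rose and H2-M2 fell with chemotherapy, with an adjusted p of 0.0466 each, and leaving out any one library left 0 to 2 calls. At an unadjusted p under 0.05, 879 genes (5.86%) stood out, 346 higher (2.3%) and 533 lower (3.55%). DESeq2 called 45 genes (0.271%), 28 of them higher (0.168%) and 17 lower (0.102%). Each of the 45 had the same sign in both strata, which, as for the human genes, choosing by the effect over both strata largely brings about. Over all tested murine genes the strata shared a sign in 45.4% of cases, below the human value. Of the 680 genes (4.53%) at an unadjusted p under 0.05 in Chemo against CTRL, 54.4% kept their sign with MC, and of the 1481 (9.87%) picked in MC + Chemo against MC, 43.1% kept it without MC. Of the 79 genes at that p in each stratum, 61 had the same sign. Over all tested murine genes 44.3% were higher, 19.8% were higher in both strata and 25.6% lower in both. Neither stratum alone gave an edgeR call (0%), while DESeq2 called 22 (0.132%) without MC and 9 (0.0541%) with MC.

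Murine p53 targets were higher with chemotherapy in both strata. Of 25 tested, 21 were higher, 17 of them in both strata, and 6 were at an unadjusted p under 0.05 (24%, against 2.3% of all tested genes). edgeR called 1, and DESeq2 called 5, against 0.168% of all its tested genes called as higher. The median log2 difference was 0.23 against -0.03 over all tested genes, and 0.20 without CTRL 17 and CTRL 44, with 18 of 26 higher. By stratum the median was 0.53 without MC and 0.14 with MC. The summed level lay between 4692 and 5791 normalized counts in Chemo and 3498 and 4102 in CTRL, which did not overlap, and between 4551 and 5813 in MC + Chemo and 3761 and 4831 in MC, which did. The highest MC value was that of MC 41.

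Cdkn1a (ENSMUSG00000023067), the cyclin-dependent kinase inhibitor p21, held 1142, 779, 844 and 577 normalized counts in CTRL 17, 31, 44 and 70, and 1716, 1212, 1247, 1131 and 1717 in Chemo. In MC it held 638, 760.0, 826, 607 and 587, and in MC + Chemo it ran from 955 through a median of 1418 to 1639.6. The groups did not overlap with MC, and without MC one CTRL library, CTRL 17, lay just above the lowest Chemo library. Cdkn1a rose by 0.86 ± 0.14 on the log2 scale, a fold of 1.82 (edgeR adjusted p = 0.0466), with 0.75 ± 0.22 without MC and 0.96 ± 0.20 with MC. Its adjusted p was 0.0241 without CTRL 17 and CTRL 44, but 0.416 at a log2 difference of 0.67 when MC + Chemo 5 was counted as MC, and it lay between 1.45e-05 and 0.416 over all the alternatives. Cdkn1a lost the call in 17 of the 20 fits that left out 1 library, with an edgeR adjusted p of at most 0.164.

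Trp53inp1, which promotes p53-dependent cell death, held 94.1, 140.0, 104 and 130.1 normalized counts in CTRL, 223, 231, 267, 211 and 159 in Chemo, 87.3, 105, 135, 132 and 126 in MC, and 135 to 230.0 with a median of 169.9 in MC + Chemo. Eda2r, a member of the TNF receptor family, held 9.6, 17.4, 5.13 and 13.2 in CTRL, 34.8, 24.4, 40.3, 34.2 and 40.9 in Chemo, 6.35, 20, 21.4, 15.5 and 9.06 in MC, and 21.8 to 40.6 with a median of 29.1 in MC + Chemo. Neither gene overlapped between the groups of a stratum, and for Eda2r all 11 treated libraries lay above all 9 untreated ones, by a margin of 21.8 against 21.4. Eda2r was the single murine gene (0.00666%) of which this held, and non-overlap in both strata held for 3 higher genes (0.02%) and 1 lower gene (0.00666%). The third higher gene was Pqlc3, which encodes a PQ-loop membrane protein and was named after its values were seen, at a log2 difference of 0.56 ± 0.11 (called by DESeq2). The log2 difference was 0.71 ± 0.13 for Trp53inp1 (edgeR adjusted p = 0.0662) and 1.25 ± 0.24 for Eda2r (0.0944), and both were called by DESeq2. Zmat3, an RNA-binding p53 target, was higher by 0.48 ± 0.11 and also called by DESeq2.

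**Figure D2:**
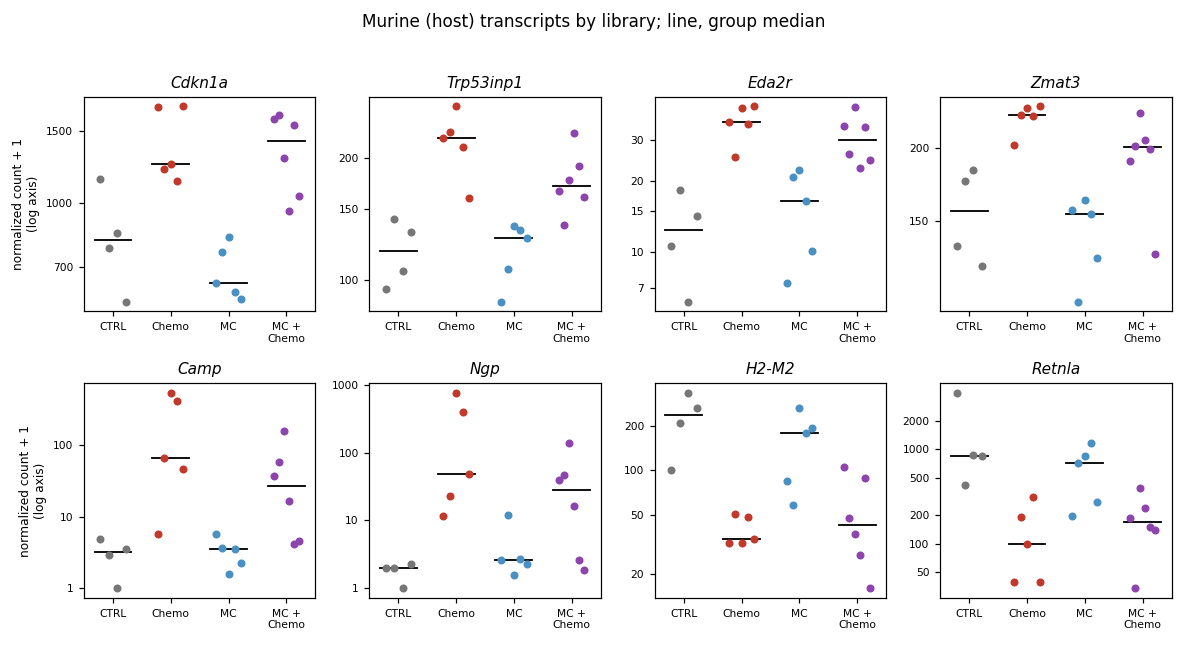
Normalized counts plus 1 (log axis) of 8 murine genes in each of the 20 libraries, with one point per library and a line at each group's median. The p53 targets of the upper row are higher in most treated libraries, Camp and Ngp reach high counts in only some of them, and H2-M2 and Retnla are lower in the treated groups.

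Neutrophil granule genes were higher in a subset of treated tumors. In bulk samples more cells of a type and more RNA per cell cannot be told apart, here and for each list below. Camp (ENSMUSG00000038357), an antimicrobial peptide of the secondary granules made in bone marrow, held 3.84, 1.93, 0 and 2.51 normalized counts in CTRL and 4.76, 2.72, 0.596, 2.58 and 1.29 in MC. It held 4.8, 65.1, 538, 420.4 and 46.6 in Chemo and ran from 3.24 through a median of 25.6 to 156 in MC + Chemo. One Chemo library and the lowest MC + Chemo libraries stayed at the level of the untreated tumors, and the rest were far above it. Camp rose by 5.51 ± 0.95 on the log2 scale (edgeR adjusted p = 0.0466). Its adjusted p lay between 1.48e-06 and 0.376 over the alternatives, with 0.376 when MC + Chemo 5 was counted as MC and 0.282 without CTRL 17 and CTRL 44. Camp lost the call in 17 of the 20 fits that left out 1 library, with an edgeR adjusted p of at most 0.168.

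The other granule genes had the same pattern. Ngp differed by 5.41 ± 1.11 and Ltf, lactoferrin, by 4.09 ± 0.99 on the log2 scale, both called by DESeq2, and Elane, the neutrophil elastase, was listed at 0 in all 5 MC libraries and reached 39.3 in Chemo and 13.5 in MC + Chemo. Of 16 neutrophil genes 14 were higher, 11 of them in both strata, with a median of 0.66, and 0.87 without CTRL 17 and CTRL 44. At an unadjusted p under 0.05 stood 7, against 2.3% of all tested genes. The summed level of the list ran from 1322 to 9519 in Chemo and from 803 to 8165 in MC + Chemo, over ranges of 1093 to 3013 in CTRL and 1586 to 2914 in MC. Chil3, a secreted chitinase-like protein of macrophages and young granulocytes, was higher by 1.83 ± 0.41 and Mmp8, the neutrophil collagenase, by 1.39 ± 0.36. Both were called by DESeq2 and not by edgeR, and Mmp8 is among the genes the study names.

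Hemoglobin and heme synthesis transcripts were also higher with chemotherapy. The study itself reports globin genes as higher with MC + Chemo in these samples, so their rise here is not independent evidence. Of 6 tested erythroid genes 5 were higher in both strata, and these 5 were at an unadjusted p under 0.05, against 2.3% of all tested genes. The list's median log2 difference was 1.33, and 0.88 without CTRL 17 and CTRL 44. Hbb-bs, a beta globin, held 352, 1289, 1357 and 895 normalized counts in CTRL, 9025, 5346, 2168, 2161 and 6979.8 in Chemo, 3181, 6142, 4747, 1737 and 1770.0 in MC, and 3449 to 11895 with a median of 4479.6 in MC + Chemo. The Chemo libraries all exceeded the CTRL libraries, and the MC libraries did so too. The log2 difference was 2.41 ± 0.54 without MC and 0.76 ± 0.46 with MC, and the test of the difference between the strata gave no edgeR call. Alas2, the erythroid enzyme that starts heme synthesis, was higher by 1.52 ± 0.42 and called by DESeq2, like Hbb-bs. Globin genes share sequence, so reads may be split between them.

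H2-M2 (ENSMUSG00000016283), a nonclassical MHC class I gene, held 99.9, 207, 329 and 261 normalized counts in CTRL, 31.2, 50, 31.3, 47.2 and 33.3 in Chemo, 84.1, 57.1, 261, 178 and 192 in MC, and 15 to 104 with a median of 41.4 in MC + Chemo. The Chemo libraries all lay below the CTRL libraries, and the MC and MC + Chemo ranges overlapped. H2-M2 fell by 2.00 on the log2 scale (SE 0.34, edgeR adjusted p = 0.0466), with -2.53 ± 0.50 and -1.56 ± 0.44 in the strata. Its adjusted p lay between 1.58e-05 and 0.164 over the alternatives, with 0.164 without CTRL 70 and 0.123 without CTRL 17 and CTRL 44, and it lost the call in 16 of the 20 fits that left out one library. As a member of a gene family of similar sequence, H2-M2 may share reads with other H2 genes.

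Several other murine genes were lower, while the macrophage and dendritic lists changed sign between the strata. Retnla, a marker of alternatively activated macrophages, held 3929, 420.0, 864 and 852 normalized counts in CTRL, 38.4, 193, 98.8, 312 and 38 in Chemo, 198, 723, 841, 1167 and 273 in MC, and 32.8 to 387 with a median of 168 in MC + Chemo. The groups did not overlap without MC. Its log2 difference was -2.55 ± 0.53, that of F7, coagulation factor VII, was -1.29 ± 0.28, that of Clec7a, the receptor dectin-1, was -1.09 ± 0.27 and that of Cxcl9, a chemokine induced by interferon gamma, was -1.12 ± 0.29. DESeq2 called all 4 and edgeR none, with adjusted p from 0.111 to 0.386. The macrophage list was higher in 15 of 20 genes (median 0.09), with medians of -0.14 without MC and 0.35 with MC and 4 genes higher and 4 lower in both strata. The dendritic and MHC class II list was lower in 10 of 13 genes (median -0.16), with medians of 0.07 and -0.32 in the same order and 4 genes lower in both strata. Il12b, a cytokine subunit made by dendritic cells and chosen after its values were seen, differed by -1.25 ± 0.33 and was called by DESeq2.

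Some natural killer receptors were also lower. Klra4, a receptor of the Ly49 family, was the one murine gene lower without overlap in both strata. It held 15.4, 38.6, 66.6 and 30.8 normalized counts in CTRL, 1.2, 0, 8.07, 13 and 2.85 in Chemo, 12.7, 28.1, 19.1, 34.4 and 25.9 in MC, and 0 to 11.6 with a median of 2.11 in MC + Chemo. Its log2 difference was -2.73 ± 0.52 (edgeR adjusted p = 0.0944), that of Klra8 was -1.94 ± 0.40 and that of Crtam, an adhesion receptor of cytotoxic cells, was -1.60 ± 0.35. These 3 genes were chosen after their values were seen, all were called by DESeq2, and Klra genes share reads with close copies. In the natural killer list, which holds none of the 3, 7 of 9 genes were lower, 6 of them in both strata, with a median of -0.60. At an unadjusted p under 0.05 stood 2, against 3.55% of all tested genes, and neither tool called any of the 9. The summed level of the list overlapped in both strata. It ran from 218 to 1027 normalized counts in Chemo and from 545 to 712 in CTRL. With MC it ran from 112 to 515 in MC + Chemo and from 148 to 563 in MC. Ncr1, the defining receptor NKp46, differed by -0.60 ± 0.25 and was not called.

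The remaining murine lists varied in the size and direction of their differences. Of 41 host genes stimulated by interferon, 14 were higher (median -0.04), and 28 (median 0.07) without CTRL 17 and CTRL 44, with 0 at an unadjusted p under 0.05. The medians of these 41 genes had opposite signs in the strata, -0.26 without MC and 0.16 with MC. Only 1 gene was higher and 10 were lower in both strata. Of 23 mitosis genes 20 were lower (median -0.25), of 24 hypoxia genes 20 (median -0.31), and of 21 DNA replication genes 16 (median -0.09). In the same order, 15, 14 and 9 were lower in both strata. At an unadjusted p under 0.05 were 6, 6 and 1, against 3.55% of all tested genes. Without CTRL 17 and CTRL 44 the medians were -0.11, -0.08 and -0.01. Endothelial genes were lower in 17 of 21 cases (median -0.22), with medians of 0.19 without MC and -0.61 with MC. Fibroblast and pericyte genes were lower in 15 of 23 (median -0.09), the 3 tested T and B lymphocyte genes were lower (median -0.07). Of 8 mast cell genes 7 were higher (median 0.20), but 1 of them was higher in both strata, with medians of -0.08 without MC and 0.43 with MC. Keratinocyte genes were higher in 7 of 7 (median 0.20), 3 of them in both strata, with medians of -0.49 and 0.66. Of the other genes the study names, Mmp12 differed by -0.47 ± 0.26 and Mmp13 by -0.40 ± 0.47, with no call.

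Muscle and fat in the excised tissue varied between libraries. Skeletal muscle genes were higher in 22 of 26 cases (median 1.10, 0 of them at an unadjusted p under 0.05), and their summed level ran from 369 to 545 normalized counts in CTRL, 381 to 4490.0 in Chemo, 511 to 65440 in MC and 500.1 to 95131 in MC + Chemo. Adipocyte genes were lower in 13 of 18 cases (median -0.43), but 7 were lower in both strata, with medians of 0.09 without MC and -0.85 with MC. Their sum reached 196589 in MC 41 and 137126 in MC + Chemo 52, against at most 13014 in CTRL. The part of this tissue in the murine differences was not tested beyond leaving out MC 41, MC + Chemo 43 and MC + Chemo 52, after which edgeR called 1 murine gene.

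**Figure D3:**
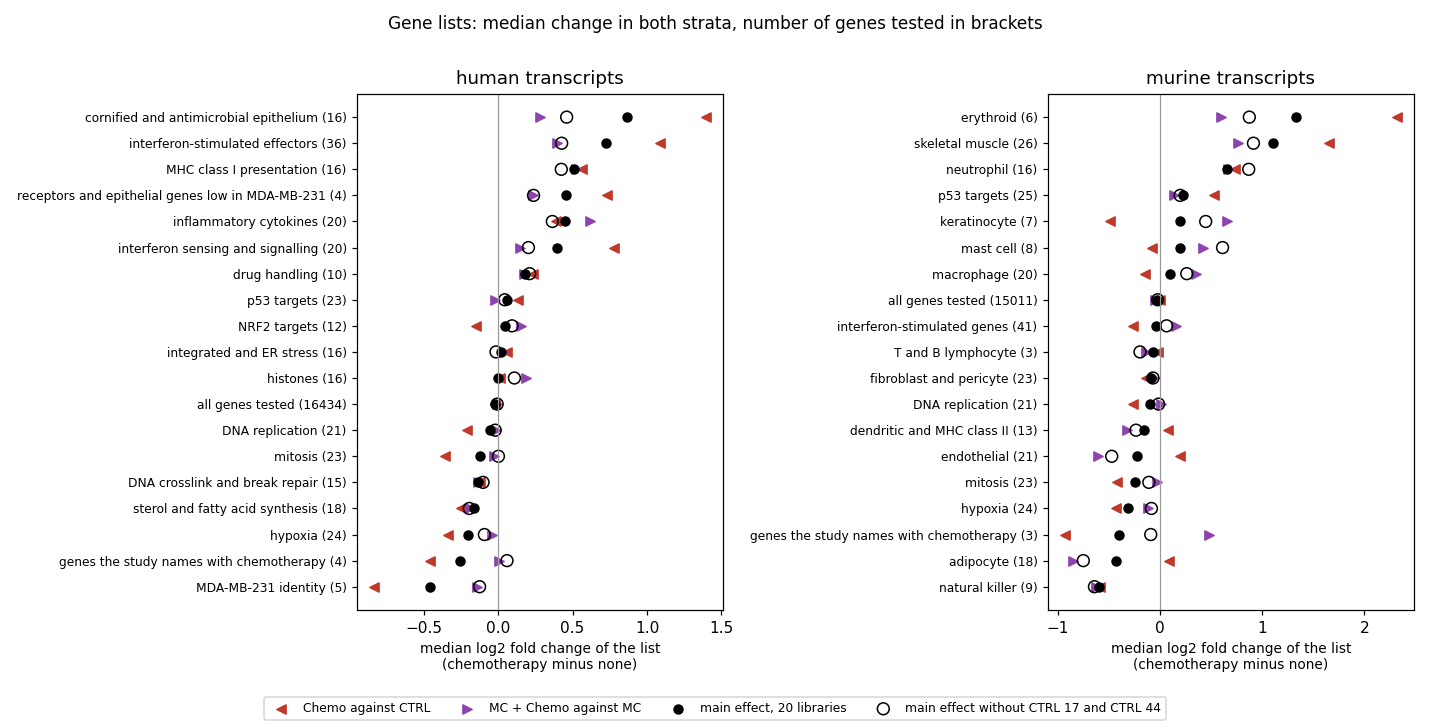
Median log2 fold change (chemotherapy minus none) of each gene list, with the number of tested genes in brackets, for human transcripts (left) and murine transcripts (right). Triangles show the separate strata, filled points the main effect over 20 libraries and open circles the main effect without CTRL 17 and CTRL 44, and the human interferon and MHC class I lists and the murine p53 and neutrophil lists lie right of 0 in all of them.

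Tumor and host transcripts came from the same libraries, so the chemotherapy difference of a human gene was set against that of the murine gene with the same symbol. Of 10607 such pairs, limma called 3 (0.0283%), while 1003 pairs stood at an unadjusted p under 0.05. ZMAT3 differed by -0.31 in the tumor and by 0.48 in the host on the log2 scale, a human minus murine difference of -0.79 ± 0.12 (limma adjusted p = 0.0144). PSRC1, a microtubule-binding spindle protein, differed by -1.51 ± 0.26 (limma adjusted p = 0.0386), from -0.55 in the tumor and 0.96 in the host. RIPOR2, an inhibitor of RhoA, differed by 1.73 ± 0.31 (limma adjusted p = 0.0434), from 1.67 in the tumor and -0.06 in the host. The number of pairs called was 8 when MC + Chemo 5 was counted as MC and 0 without MC 41 and MC 42. Without CTRL 17 and CTRL 44 the difference was -0.64 for ZMAT3, still called, while PSRC1 and RIPOR2 were not (limma adjusted p = 0.126 and 0.206).

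The lists were compared between the genomes as well. Of 30 pairs of interferon-stimulated effectors, 30 were higher in the tumor and 11 in the host, and the human minus murine difference was positive for 29, with a median of 0.97. For MHC class I genes it was positive for 10 of 11 pairs (median 0.37). For p53 targets it was positive for 6 of 20 pairs (median -0.18), with 13 human and 16 murine genes higher. Mitosis pairs had a median difference of 0.09, against -0.01 over all pairs.

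**Figure D4:**
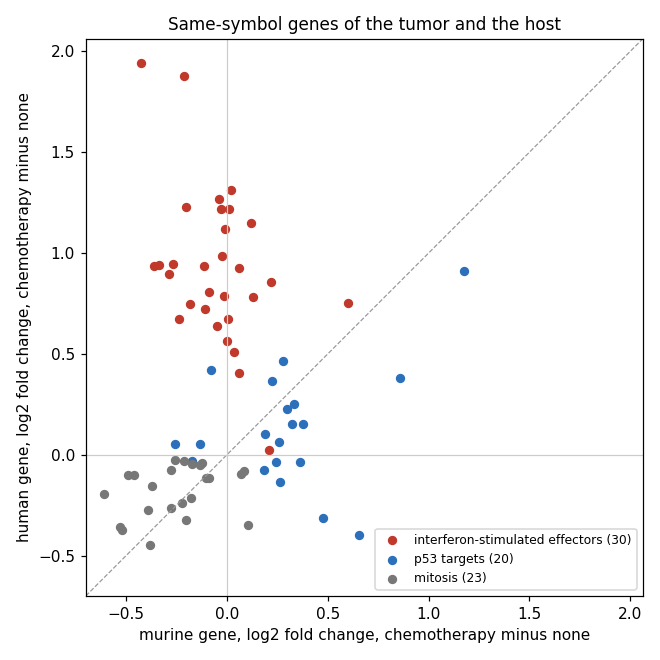
Log2 fold change (chemotherapy minus none) of human genes against that of murine genes of the same symbol, with one point per gene pair of 3 lists and a dashed line of equality. The 30 pairs of interferon-stimulated effectors lie above 0 on the human axis and around 0 on the murine axis, most p53 pairs lie right of 0 on the murine axis, and mitosis pairs lie near or below 0 on both.

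Whether the chemotherapy difference itself depended on MC was tested with the interaction contrast. edgeR called 0 genes in either table (0%), with 1600 human (9.74%) and 1031 murine genes (6.87%) at an unadjusted p under 0.05, and DESeq2 called 2 human (0.0106%) and 0 murine genes. A miss of the threshold does not show that the strata respond alike. In the human table most of the named genes had a smaller difference with MC than without it, for example ISG15 at 0.81 ± 0.29 against 1.41 ± 0.33, and CTRL 17 and CTRL 44 belong to the stratum with the larger values.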

How the data were processed

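Excised tumors were sequenced as 3′ tag libraries with short single-end reads. The authors aligned reads with BlueBee and deposited raw counts per gene for the human and the murine genome. They also deposited DESeq2 normalized counts, treated as a signal here and used for the values per library. The labels name the build GRCm38 and DESeq2 1.22.2, and the human build and the handling of reads that match both genomes are not given in the sources used here. The deposited tables held 18880 human and 16667 murine genes, each with a summed count of at least 72, and 5259 human and 2991 murine identifiers had no symbol.

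Raw counts were fitted here with edgeR 4.0.16 in R 4.3.3 (TMM scaling, filterByExpr, quasi-likelihood F test, Benjamini-Hochberg over all tested genes). The main effect came from an additive model of MC and chemotherapy over the 20 libraries, and the strata and their difference from a model of 4 group means. Genes were called at an adjusted p under 0.05. DESeq2 1.42.0 was an alternative, and limma 3.58.1 compared human minus murine log2 CPM (prior count 2) of genes with the same symbol. The edgeR and DESeq2 main effects and the limma comparison were tested on simulated data, and the other tests were not. Named genes were, per genome and direction, the called genes with a mean over 30 normalized counts, a fold over 1.5 and the same sign in both strata. Where fewer than 5 qualified, the 5 with the smallest unadjusted p that met the other criteria were taken. The members with the smallest p of 18 lists per genome and of the comparison of genomes were added. The comparison, the lists and the members were chosen with earlier results of these data known. The labels name separate mice, and a standard error is that of the fit.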

Additional observations from a re-analysis of the deposited data

Results flagged for a closer look

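A library was singled out where its gap to the nearest library of its group exceeded Dixon's 95% critical share of the group's range. Of 84 groups tested over the human share of counts and the 20 leading genes, 6 held such a library, and chance alone flags about 1 in 20 groups. The human share of counts in MC 41 was 47.8%, with a gap of 0.788 of the range of MC. B2M in CTRL 17 was low by a gap of 0.860 and B2M in MC + Chemo 52 was high by a gap of 0.657. BMP2 in MC 59 was low by a gap of 0.735 and MAOA in MC 6 was low by a gap of 0.825. Ngp in MC 41 was high by a gap of 0.734. B2M was still higher with chemotherapy without CTRL 17 and CTRL 44, by 0.63 on the log2 scale.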

How the results depend on the processing

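Of the 67 human and 48 murine genes recomputed, none changed sign under the alternatives run except murine Ripor2, which was at 0.070 with the human to murine ratio as a covariate. DESeq2 in place of edgeR called 251 human genes in the main effect, 618 in Chemo against CTRL, 8 in MC + Chemo against MC and 2 in the difference between strata, and 45, 22 and 9 murine genes in the main effect and the strata. In the human main effect every other edgeR setting called 0 genes, from 0 to 0 leaving out each library. The human calls of DESeq2 were 157 without MC 41 and MC 42, 85 without CTRL 17 and CTRL 44, and 48 without MC 41, MC + Chemo 43 and MC + Chemo 52, and from 59 to 512 leaving out each library. The 3 murine calls of edgeR became 0 with robust dispersion, 1 with MC + Chemo 5 counted as MC, 9 with the human to murine ratio as a covariate, 1 without CTRL 17 and CTRL 44, 1 without MC 41, MC + Chemo 43 and MC + Chemo 52, and 0 to 2 leaving out each library. edgeR calls in Chemo against CTRL ran from 0 to 1466 human and from 0 to 1 murine genes leaving out each library, the latter without CTRL 31. The gene pairs called between genomes were 8 with MC + Chemo 5 counted as MC, 0 without MC 41 and MC 42, 0 without MC 41, MC + Chemo 43 and MC + Chemo 52, and 1 to 6 leaving out each library. ZMAT3 was called in each of those 20 leave-one-out fits. The share of murine genes with the same sign in both strata was 53.2% with the ratio covariate and 54.3% without CTRL 17 and CTRL 44. The causes of these changes were not tested. The alternatives without CTRL 17 and CTRL 44 and without MC 41, MC + Chemo 43 and MC + Chemo 52, and the DESeq2 fits that leave out libraries, were chosen after seeing the data. The human share differed by 1.30 to 4.54 percentage points over the alternatives, with an exact permutation p of at least 0.0793. No paired analysis was possible because the groups share no replicate numbers in the labels.

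The murine tables are the shallower of both, and genes such as Camp or Elane rest on few counts in the untreated tumors. The groups hold 4 to 6 mice each, and in CTRL 2 of 4 tumors stood apart in the human table. The labels do not give a batch or a date, so batch effects could not be examined. Reads that match both genomes could not be traced.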

Other observations

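Exoc4, a subunit of the exocyst, and Foxo6, a forkhead transcription factor, were also higher in the host with chemotherapy, by 0.53 ± 0.10 and 0.84 ± 0.18 on the log2 scale (edgeR adjusted p = 0.0944 and 0.133), and DESeq2 called both. Exoc4 held 223 to 300.3 normalized counts in CTRL, 290.5 to 430.3 in Chemo, 211 to 342 in MC and 365 to 463 in MC + Chemo. Cyp51, a sterol synthesis enzyme, differed by -0.52 ± 0.12 (SE) in the host on the log2 scale and was called by DESeq2, with 260 to 278 normalized counts in CTRL, 155 to 210.0 in Chemo, 161 to 312 in MC and 129 to 197 in MC + Chemo. The study names Foxo6 as higher with MC + Chemo, and CYP51 as lower without saying of which genome, so neither is independent evidence. Exoc4 and Cyp51 were chosen after their values were seen. IDO1, a tryptophan-degrading enzyme induced by interferon and chosen in the same way, was higher in the tumor by 1.88 ± 0.54 on the log2 scale (called by DESeq2), from 0 to 28.9 normalized counts in libraries without chemotherapy and 9.05 to 95.7 in those with it.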
